A study of Rattus norvegicus with 24 samples.

Results

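A set of 116 genes was higher in DAAO than in CTL rat hearts by at least 2-fold on average in both ventricles, with no overlap between the groups in either ventricle. The genes were chosen by 3 measured values in each of the 2 tables, out of 32883 identifiers. These were a mean normalized count of at least 50 over the 12 libraries, a DAAO minus CTL difference of at least 1 in mean log2(value + 1), and a lowest DAAO value above the highest CTL value. Of the 10955 genes with a mean of at least 50 in both tables, 119 met all conditions (1.09%). The rule also leaves out 7 identifiers, of which 3 met the conditions, so 116 remained. The DAAO minus CTL values below are therefore a description of what chose the genes, and no test of that contrast is given for them.

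RNA sequencing was done on hearts of rats of strain WI. The 24 libraries form 4 groups of 6: the left ventricle with its septum and the free wall of the right ventricle, each from animals labelled CTL, read here as controls, and from animals labelled DAAO. Each 4-digit number occurs once per ventricle and within 1 group, and was read as 1 animal. This reading is not stated in the labels, nor that each number was a rat of its own; p-values measure only the spread between these samples. In library names, C_ marks a CTL and D_ a DAAO library. The sources used here give neither sex, age, dose and duration nor the origin of the enzyme, the promoter that drives it and what CTL animals received. All DAAO numbers are higher than all CTL numbers, so the groups cannot be told apart from anything else that goes with the numbers.

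DAAO usually stands for D-amino acid oxidase, an enzyme that turns D-amino acids into imino acids and releases hydrogen peroxide. In chemogenetic models the enzyme is placed in a chosen tissue and its substrate is given from outside, so that peroxide forms where the enzyme is. Hydrogen peroxide at low levels acts as a signal through oxidation of protein thiols, and at high levels it damages lipids, proteins and DNA; the failing ventricle is known for a switch toward fetal muscle genes, matrix deposition and a lower expression of genes of energy metabolism. The deposited tables list genes by Ensembl number only, and the reference used here matched 0 of the 116 genes. No gene name, function, cell type or sequence is therefore given. Genes are called here by their rank, from gene 1, the largest rise averaged over both ventricles, to gene 116, the smallest. Gene 1 is ENSRNOG00000012094 and gene 58, the most abundant of the set, is ENSRNOG00000002848.

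Left ventricular libraries held 15363539 to 23263897 reads recovered from the deposited values, and right ventricular ones 13280705 to 18777633. The tables were normalized separately, so levels are compared within a ventricle. In these tissue samples, more cells of a type and more RNA per cell cannot be told apart.

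The size of the rise was alike in the ventricles taken over the whole set, which the rule partly sets by its limit in both. The median DAAO minus CTL difference was 1.73 on the log2 scale in the left ventricle (3.32-fold) and 1.77 in the right (3.41-fold), where all 10955 genes had medians of 0.0042 and 0.0041. Left ventricular differences spanned 1.003 to 3.85 and right ventricular ones 1.002 to 4.63. At least 4-fold rises were measured for 41 genes in the left, 45 in the right and 33 in both, and at least 8-fold rises for 7, 12 and 6. The 6 genes at 8-fold or more in both were genes 1, 2, 3, 4, 5 and 9. At the other end, 50 of the 116 genes rose less than 3-fold in the left ventricle and 50 in the right. The standard error of a gene's difference had a median of 0.21 in the left and 0.30 in the right ventricle.

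**Figure D1:**
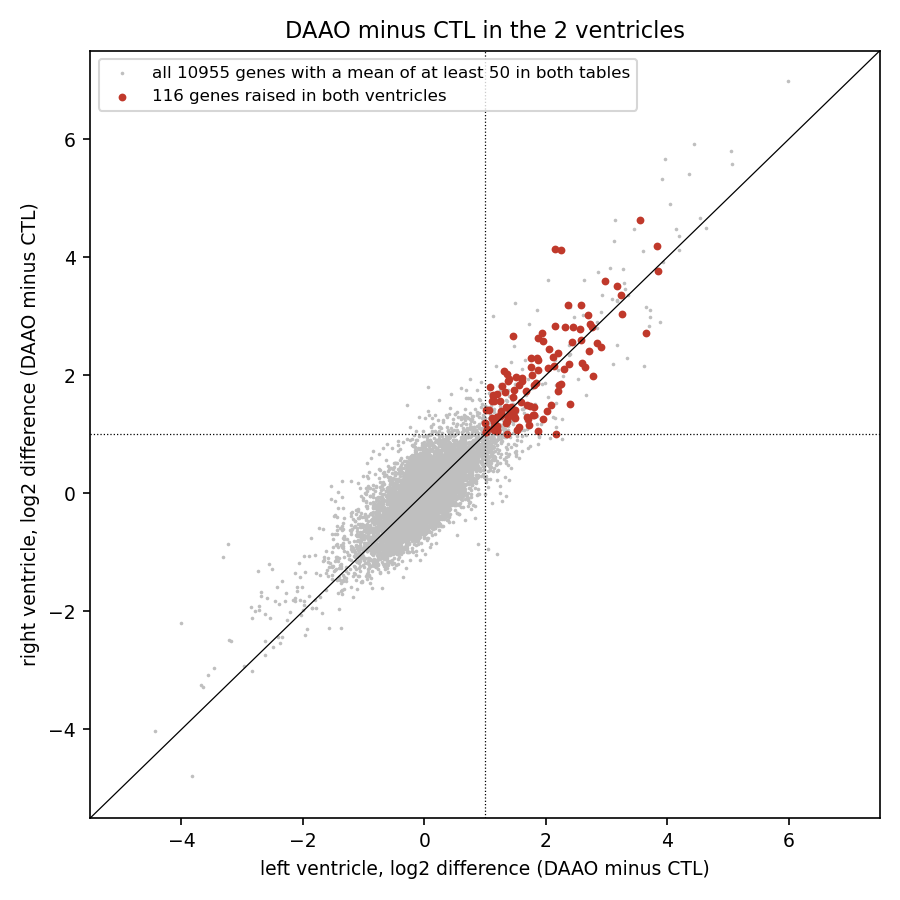
Each point is a gene, with its DAAO minus CTL difference in mean log2(value + 1) in the left ventricle on the x axis and in the right ventricle on the y axis. The 116 chosen genes (red) lie in the upper right by construction, at 1 or more on both axes, and spread around the line of equal difference; grey points are the 10955 genes with a mean of at least 50 in both tables, and dotted lines mark a difference of 1.

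A limma fit across all genes gives the frame for these counts. It called 17.3% of 14041 tested genes higher in DAAO in the left ventricle and 12.5% of 13489 in the right at an adjusted p below 0.05. Every DAAO library lay above every CTL library for 7.58% and 4.46% of the tested genes. All 116 genes were called in both fits and did not overlap in either, which the rule had already brought about, and nothing is read from it.

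The gaps between the groups were wider in the left ventricle. There the lowest DAAO library stood a median of 1.70 times above the highest CTL library, and 35 of the 116 genes had a gap of at least 2-fold. The median gap in the right ventricle was 1.38 times, and 16 genes had a gap of at least 2-fold. For 5 genes in the left and 19 in the right ventricle the gap was under 1.1 times, so that a small shift of 1 library would end the separation. The widest gaps belonged to gene 3, at 9.17 times in the left and 3.27 times in the right ventricle.

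Gene 1 had the largest mean rise. In the left ventricle its normalized counts were 210, 358 and 800 in CTL (lowest, median and highest of 6) and 2369, 4695 and 7237 in DAAO. Right ventricular counts were 27.2, 132 and 461 in CTL and 1275, 3858 and 7176 in DAAO. All DAAO libraries were thus several times above all CTL libraries, by 2.96 times at the narrowest in the left and 2.77 times in the right. The log2 differences were 3.55 (SE 0.37) and 4.63 (SE 0.75).

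Gene 2 reached similar folds at a lower level. Its left ventricular counts were 54.7, 101 and 214 in CTL and 814, 1838 and 2285 in DAAO, a log2 difference of 3.84 (SE 0.40). Its right ventricular counts were 12.2, 76.6 and 172 in CTL and 467, 1254 and 2762 in DAAO, a difference of 4.19 (SE 0.68). Genes 1 and 2 also had the same extremes among the DAAO libraries of the right ventricle: for both, D_7138 was highest and D_7137 lowest.

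Gene 3 was the most uniform of the 3 largest rises in the left ventricle, with 36.3, 73.2 and 88.7 in CTL and 813, 978 and 1278 in DAAO (log2 difference 3.85, SE 0.21). Its CTL libraries of the right ventricle were equally close, at 19.4, 28.1 and 39.1. The DAAO libraries there spread from 128 through a median of 424 to 850 (log2 difference 3.76, SE 0.45). D_7143 was the lowest DAAO library for gene 3 in both ventricles.

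Genes 4, 5, 6 and 9 were of low abundance in CTL hearts. Gene 4 had medians of 31.0 in CTL and 245 in DAAO in the left ventricle, and of 12.4 and 146 in the right. Gene 5 had medians of 43.3 and 483 in the left ventricle, and of 20.4 and 192 in the right. The CTL libraries of gene 5 were close together in the left ventricle, from 34.0 to 59.5, and its DAAO libraries were at 247 to 608. Gene 6 had medians of 14.2 and 120 in the left ventricle, and of 10.8 and 146 in the right. Gene 9 had medians of 22.6 and 326 in the left ventricle, and of 35.6 and 252 in the right. All 4 rose by 2.97 or more on the log2 scale in both ventricles.

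**Figure D2:**
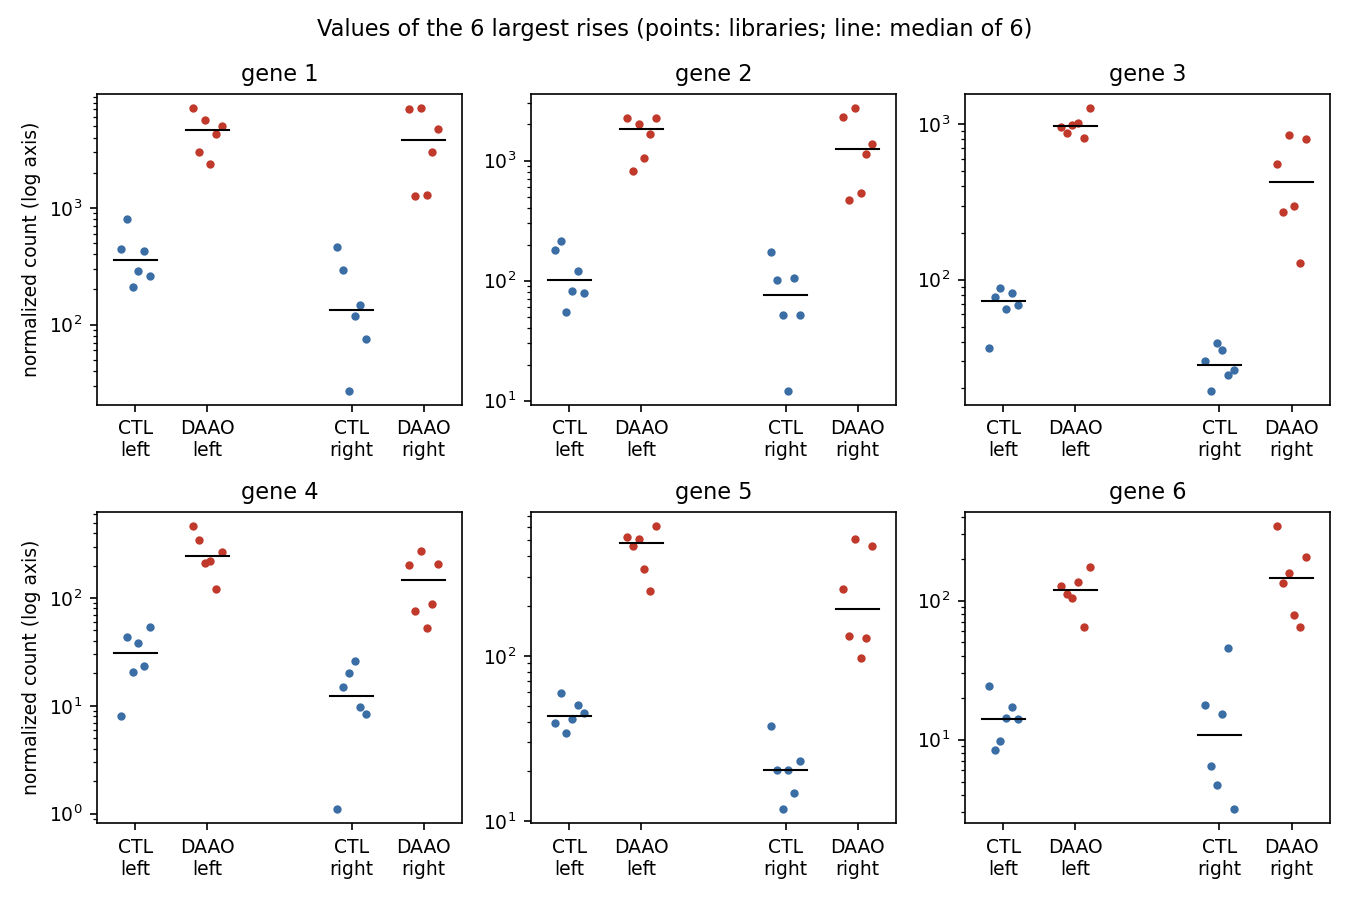
Normalized counts (log axis) of the 6 largest rises in each library, with CTL in blue, DAAO in red and a line at the median of 6 libraries. The DAAO libraries of genes 1 to 6 lie above the CTL libraries in both ventricles, and they spread more widely in the right, as for gene 3 with 813 to 1278 in the left and 128 to 850 in the right.

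Genes 8 and 10 had a rise that was much larger in size in the right than in the left ventricle. Gene 8 was near the detection limit in the right ventricle of CTL animals, at 0, 5.70 and 13.3, and stood at 28.6, 87.8 and 328 in DAAO. In the left ventricle it was at 17.3, 31.1 and 58.3 in CTL and at 83.7, 136 and 341 in DAAO. It was the 1 gene of the set listed at 0 in any library, C_7123 of the right ventricle. Its right ventricular difference of 4.12 (SE 0.82) therefore depends on the pseudocount more than the others, and the left one was 2.24 (SE 0.44). Gene 10 was at 16.6, 78.4 and 166 in CTL and at 303, 1360 and 2818 in DAAO in the right ventricle, a difference of 4.13 (SE 0.70). Left ventricular counts of gene 10 were 114, 245 and 425 in CTL and 555, 1161 and 1368 in DAAO, a difference of 2.15 (SE 0.34).

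Gene 7 went the other way. Its left ventricular counts were 122, 190 and 276 in CTL and 1208, 2700 and 3404 in DAAO, a log2 difference of 3.65 (SE 0.28). Its right ventricular counts were 145, 221 and 273 in CTL and 536, 1571 and 2854 in DAAO, a difference of 2.72 (SE 0.39). D_7143 was its lowest DAAO library in both ventricles.

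The remaining genes among the 15 largest rises, genes 11 to 15, rose by 2.36 to 2.76 in the left and by 2.82 to 3.19 in the right ventricle. Gene 14 was the most uniform of them, with 145, 177 and 212 in the left and 89.7, 139 and 166 in the right ventricle of DAAO animals. In CTL it was at 19.3, 24.4 and 33.3 and at 8.45, 22.3 and 34.4. Gene 13 had 1 high library in the left ventricle, D_7142 at 714, where the other DAAO libraries ranged from 134 to 299. Of the 15 largest rises, 12 were larger in the right ventricle. The ranking used the mean of both differences, and right ventricular ones spread more widely, so the ranking partly sets this count.

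The 10 most abundant genes of the set were genes 16, 45, 52, 57, 58, 60, 83, 88, 89 and 115. Together they held between 49.6% and 55.5% of the set's reads in the DAAO libraries of the left ventricle and between 53.2% and 59.2% in the right. Gene 58 was in 42nd place among all genes in the left ventricle, at 9988, 15978 and 24046 in CTL and 33244, 37984 and 49628 in DAAO. Its mean rose from 15940 ± 5000 in CTL to 39880 ± 7004 in DAAO (SD, 6 libraries each), a log2 difference of 1.36 (SE 0.21). Right ventricular counts of gene 58 were 2703, 4982 and 8593 in CTL and 13025, 21308 and 32633 in DAAO, a difference of 2.03 (SE 0.35). The DAAO library with the lowest right ventricular value of gene 58 was D_7135, a library that was highest for 31 other genes of the set.

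Gene 52 was the most abundant gene of the set in the right ventricle, in 55th place among all genes. It stood at 4208, 11365 and 12394 in CTL and 20059, 36488 and 60740 in DAAO there, and at 4201, 8143 and 10664 and 16261, 22466 and 30487 in the left ventricle. Gene 57 followed the same order of libraries at its extremes. For both genes D_7143 was the highest and D_7137 the lowest DAAO library of the left ventricle, and D_7135 the highest and D_7137 the lowest of the right. The rises of gene 52 were 1.60 (SE 0.25) in the left and 1.96 (SE 0.34) in the right ventricle, and those of gene 57 were 1.55 (SE 0.25) and 1.84 (SE 0.38).

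Gene 60 was tight in CTL and wide in DAAO. Its left ventricular CTL libraries were at 7683, 8445 and 9225, and its DAAO libraries at 13410, 22967 and 33044. Right ventricular counts of gene 60 were 2966, 4112 and 5377 in CTL and 9920, 14944 and 34586 in DAAO. Gene 16 had the largest rise among the 10 most abundant genes, 2.91 (SE 0.28) in the left and 2.47 (SE 0.20) in the right ventricle. Its right ventricular DAAO counts were 9660 to 10102 in 5 libraries and 5693 in D_7143.

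Averaged over both ventricles, genes 83, 88, 89 and 115 rose less than the rest of the most abundant genes. Gene 83 rose by 1.24 (SE 0.13) and 1.57 (SE 0.26), in left and right. Gene 88 rose by 1.13 (SE 0.16) and 1.65 (SE 0.26). Gene 89 rose by 1.49 (SE 0.13) and 1.27 (SE 0.18). Gene 115 rose least of the 10, from 5022, 5663 and 6627 to 8928, 11757 and 14280 in the left ventricle. Gene 45 overlapped most nearly among these genes: its highest right ventricular CTL library was C_7000 at 6108 and its lowest DAAO library D_7137 at 6143.

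Rises were larger among genes of low CTL level. The 32 genes with a CTL mean under 100 in the left ventricle had a median log2 difference of 2.10, and the 21 genes with a CTL mean of at least 1000 had 1.37. In the right ventricle the medians were 2.27 for 38 genes and 1.65 for 19 genes. Because the rule asks for a mean of at least 50, a gene of low CTL level could enter only with a large rise, so this order is partly set by the rule.

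The share of all recovered reads that fell on the 116 genes sums up the set in each library. In the left ventricle CTL libraries averaged 0.543% ± 0.112 and DAAO libraries 1.85% ± 0.184 (SD, 6 libraries), and in the right 0.424% ± 0.107 and 1.80% ± 0.540. The 6 DAAO libraries of the left ventricle lay between 1.68% and 2.16%. In the right ventricle they fell apart: D_7135, D_7138 and D_7146 stood at 2.44%, 2.38% and 1.999%, and D_7143, D_7137 and D_7142 at 1.42%, 1.32% and 1.26%. The former 3 had a larger share in the right than in the left ventricle and the latter 3 a smaller one. All 6 CTL animals had a smaller share in the right ventricle.

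**Figure D3:**
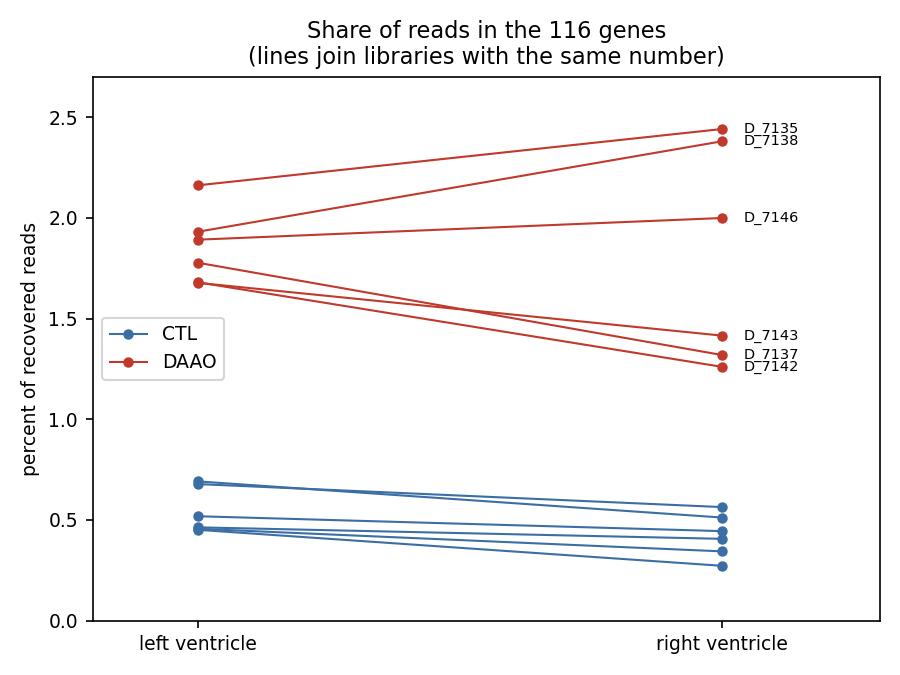
Percent of recovered reads in the 116 genes (y axis) in the left and right ventricle, with a line joining the libraries of 1 number, CTL in blue and DAAO in red. DAAO libraries lie between 1.26% and 2.44% and CTL libraries between 0.272% and 0.692%, and the DAAO lines diverge toward the right ventricle.

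Values of the set were spread more widely within a group than those of the 10955 genes. Within DAAO the median SD on the log2 scale was 0.31 in the left and 0.51 in the right ventricle, beside 0.18 and 0.26 over all 10955 genes. Within CTL the medians were 0.34 and 0.46, beside 0.19 and 0.25. The highest DAAO library was a median of 1.77 times the lowest in the left and 2.51 times in the right ventricle. For the 15 largest rises these ratios were 2.69 and 5.32. It exceeded 5 times for 3 genes in the left and 16 in the right ventricle.

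Single DAAO animals were often the highest or the lowest of their group. D_7135 of the left ventricle was the highest DAAO library for 39 of the 116 genes (33.6%, beside 10.4% of all 10955 genes). In the right ventricle D_7138 was highest for 54 (46.6%, beside 16.2%) and D_7135 for 31. D_7143 was the lowest DAAO library for 66 genes in the left (56.9%, beside 20.6%) and for 52 in the right ventricle (44.8%, beside 12.3%). It was highest for 3 genes in the left and 0 in the right ventricle. The lowest DAAO library had the same number in both ventricles for 66 genes (56.9%, beside 34.3% of all 10955 genes). The highest had the same number for 40 (34.5%, beside 34.2%). The members share their libraries, so these counts are no set of independent observations.

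Genes 13, 29 and 47 had the largest ratio of highest to lowest DAAO library in the left ventricle, and were singled out after their values were seen. Gene 29 had the largest ratio in both ventricles, 10.9 times in the left and 14.98 times in the right. In the left ventricle it was at 6039 in D_7137 and 3983 in D_7142, and at 553 to 1076 in the 4 other DAAO libraries. In the right ventricle it was at 10682 in D_7137 and 3606 in D_7142, and at 713 to 1136 in the 4 others. CTL libraries of gene 29 ranged from 240 to 429 and from 246 to 581. All DAAO libraries of gene 29 lay above its CTL libraries, and D_7137 and D_7142 were far above the rest; the log2 differences were 2.21 (SE 0.57) and 2.38 (SE 0.65). Gene 47 was likewise highest in D_7142 and D_7137, at 973 and 806 in the left ventricle and 157 and 228 in the right, with the other DAAO libraries at 193 to 293 and at 28.1 to 62.9. For gene 13, D_7142 was highest in both ventricles.

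**Figure D4:**
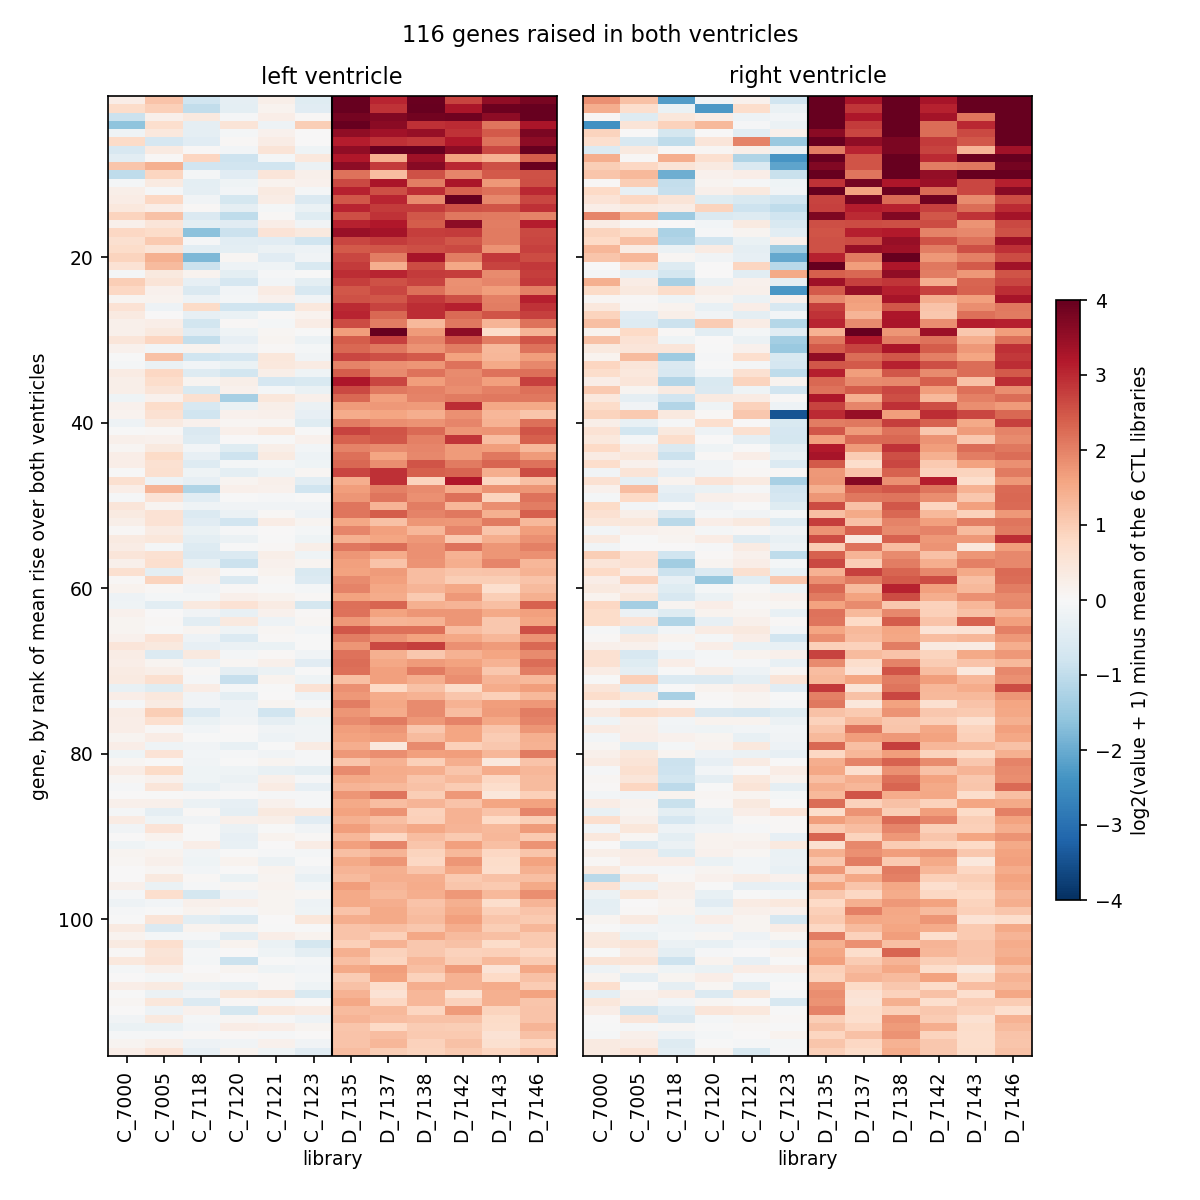
Each row is 1 of the 116 genes in order of mean rise and each column a library; colour gives log2(value + 1) minus the mean of the 6 CTL libraries of that ventricle, clipped at 4 in either direction. The median over genes lies between 1.41 and 1.89 for the DAAO libraries of the left ventricle and between 1.33 and 2.17 in the right, and D_7143 is the palest DAAO column in both.

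Among controls, C_7000 and C_7005 stood highest; their numbers are well below the rest. One or the other was the highest CTL library for 83 of the 116 genes in the left (71.6%, beside 36.9% of all 10955 genes) and 84 in the right ventricle (72.4%, beside 33.9%). With the mean of the remaining 4 CTL libraries set to 0 and the DAAO mean to 1, the median gene of the set stood at 0.16 in C_7000 and 0.20 in C_7005 in the left ventricle. The corresponding right ventricular medians were 0.26 and 0.22. The rule limits these positions, since it keeps only genes with all CTL libraries under all DAAO libraries. Without both animals the median rise of the 116 genes was 1.83 in the left and 1.93 in the right ventricle, and the median gap widened to 2.06 and 1.70 times. The rule would then be met by 343 genes, 113 of them among the 116. Leaving out CTL libraries can only widen a gap or leave it as it is. The wider gaps thus follow from that step, which also makes the condition on overlap easier to meet.

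Whether the rise differed between the ventricles was asked in a limma fit over all 24 libraries. The rule sets no limit on the difference between the rises, but it bears on it. By setting a lower limit to both rises it leaves out genes that move in opposite directions. Its limits also acted unequally: overlap alone kept out 47 genes in the right ventricle and 8 in the left. A difference under 1 alone kept out 34 in the left and 13 in the right. The rise was larger in the right ventricle for 71 of the 116 genes and in the left for 45, a split that the rule can shape. The median left minus right difference was -0.08, beside -0.0016 over all genes in the fit, and 87 genes lay within 0.5 of equal. Only 5 genes were more than 1 apart. Genes 1, 8, 10 and 39 had the larger rise in the right and gene 67 in the left ventricle. For gene 39 this leaned on 1 right ventricular CTL library, C_7123 at 1.06, where the others were at 22.3 to 46.6. With a pseudocount of 5 the rises of gene 39 were 1.38 in the left and 2.33 in the right ventricle, under 1 apart.

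In that fit 1 of the 116 genes passed an adjusted p of 0.05, beside 2.93% of the 13344 genes tested. Unadjusted p values below 0.05 were found for 12 (10.3%, beside 17.6% of all genes tested). The gene called was gene 76. In the left ventricle its counts were 221, 254 and 452 in CTL and 828, 1083 and 1191 in DAAO, a log2 rise of 1.87 (SE 0.18). Right ventricular counts of gene 76 were 244, 290 and 332 in CTL and 444, 579 and 771 in DAAO, a rise of 1.05 (SE 0.14). The rises of gene 76 differed by 0.82 (95% interval 0.37 to 1.27, limma adjusted p = 0.0428). The call was lost in 11 of 19 alternatives, at adjusted p values from 0.0578 to 0.105. For 104 of the 116 genes the 95% interval of the difference held 0, with a median interval width of 1.46. A difference well inside such an interval was not detectable in this fit, which does not pair the libraries of 1 animal. The fit with the animal as a block, given next, called differences as small as -0.45 (gene 92, SE 0.13).

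With the animal as a block, 9 of the 116 genes were called, beside 8.03% of all genes tested. Of these, 6 rose more in the left ventricle, genes 7, 46, 65, 67, 76 and 80, and 3 more in the right, genes 10, 81 and 92. Gene 67 differed by 1.15 (SE 0.19, limma adjusted p = 0.00578 with the block and 0.0703 without it). Its left ventricular counts were 135, 157 and 237 in CTL and 556, 727 and 1157 in DAAO, and its right ventricular counts were 144, 185 and 212 in CTL and 223, 340 and 736 in DAAO. Gene 76 differed by 0.82 (SE 0.16, limma adjusted p = 0.00906 with the block and 0.0428 without it). Gene 7 differed by 0.93 (SE 0.17, adjusted p = 0.00733 with the block and 0.273 without it). Gene 10 differed by -1.98 (SE 0.52, adjusted p = 0.0309 with the block and 0.135 without it). The larger differences of gene 1, at -1.07 (adjusted p = 0.0763 with the block), and gene 8, at -1.88 (adjusted p = 0.0698 with the block), were not called in either fit.

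**Figure D5:**
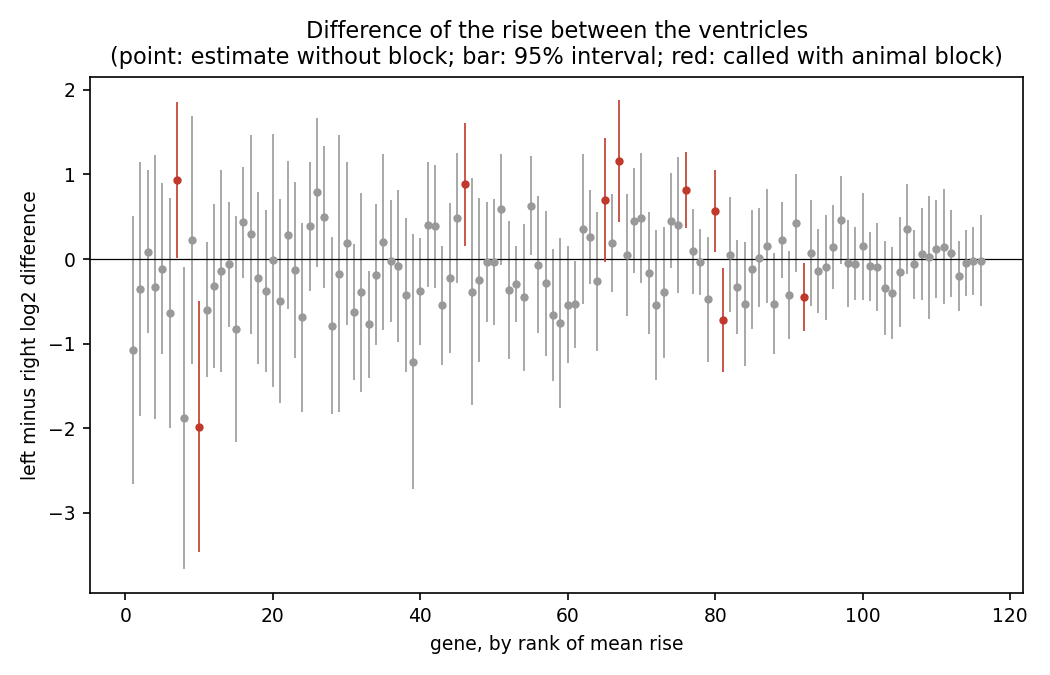
Left minus right difference of the log2 rise (y axis) for each gene in order of mean rise (x axis), with its 95% interval from the fit without a block; red marks the 9 genes called with the animal as a block. The intervals of 104 genes include 0, and they narrow toward the smaller rises.

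Levels were also set side by side across the ventricles as CPM, a scaling of recovered reads to a common library total, with no test because the tables are separate. In CTL animals the median gene of the set was higher in the left ventricle by 0.35 on the log2 scale, beside 0.09 over all 10955 genes. It was higher in the left ventricle of all 6 CTL animals for 34 genes (29.3%, beside 30.4%) and in the right of all 6 for 7 (6.03%, beside 16.6%). In DAAO animals the median was 0.32, beside 0.05. There 29 genes were higher in the left ventricle of all 6 animals (25%, beside 23.8%) and 4 in the right (3.45%, beside 12.7%). The left counts were thus near the share of all genes in both groups. Gene 28 had the largest mean of the log2 ratios of left to right over the 6 CTL animals, 2.39 ± 0.95 (SD), beside 1.98 ± 0.33 for gene 47. The mean level of gene 28 was 50.1 CPM in the left and 10.7 in the right ventricle of CTL animals, and 221 and 76.2 in DAAO. Gene 47 stood at 5.77 and 1.095 CPM in CTL and 25.9 and 6.53 in DAAO, a larger ratio of mean levels than that of gene 28 in both groups. Gene 45 had the lowest mean log2 ratio in CTL animals, at 115 CPM in the left and 228 in the right ventricle of CTL animals and 591 and 992 in DAAO.

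The limits of the rule lie in a dense part of the data. Exactly 1 of the 6 conditions was missed by 112 genes. A DAAO library at or under the highest CTL library in the right ventricle alone kept out 47, and a difference under 1 in the left ventricle alone kept out 34. The smallest differences inside were 1.003, 1.013 and 1.013 in the left and 1.002, 1.008 and 1.031 in the right ventricle. Values outside are given here only for genes that missed that condition alone. The largest differences outside were 0.95, 0.95 and 0.93 in the left and 0.9995, 0.99 and 0.97 in the right. The narrowest right ventricular gaps inside were 1.005, 1.006 and 1.017 times, and the nearest outside were 0.986, 0.983 and 0.979 times. The lowest means inside were 54.8 in the left and 50.6 in the right ventricle, and the highest outside were 46.8 and 46.7.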

How the data were processed

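The authors deposited 2 tables of normalized counts, 1 per ventricle (unit here: signal), in which each library's gene counts had been scaled by a single factor. STAR 2.7.0a, FastQC and DESeq2 1.26.0 with the build Rnor_6.0 are named in the submitters' processing notes. The sources used here give no read counter, annotation or strand setting, so genes that overlap or share sequence are uncertain. Within a library every value was a whole multiple of 1 step (100% within 1e-06), so reads were recovered by dividing by it.

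The members and lists were chosen with earlier results of these data known. Genes were singled out as the 15 largest rises, the 10 most abundant and gene 76, called for the difference between ventricles. Chosen after their values were seen were the genes called with the block, those more than 1 apart between ventricles, and the extremes of the DAAO spread and of the left to right ratio, which brings the number to 38; not all are given with counts. With no symbols, 2 identifiers are printed, and the gene lists, cell type markers and promoter motifs planned for named genes were not analysed here.

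Across all genes with a mean of at least 10, log2(value + 1) was tested with limma 3.58.1 (R 4.3.3, trend, two-sided, Benjamini-Hochberg), and the left minus right difference of the DAAO effect in 1 fit over 24 libraries. As alternatives, the recovered reads went through edgeR 4.0.16 and DESeq2 1.42.0. The scripts were tested on simulated data with changes in the left ventricle alone. Left and right libraries were drawn independently there, so the blocked fit was not tested on paired libraries. Deviations of same-numbered left and right libraries from their group means correlated across genes at 0.0567 to 0.788 (median 0.548), and 9 of 12 animals matched their own number best. The others were all CTL: 7118 (0.0601), 7120 (0.0567) and 7123 (0.254). For these the values gave little ground for the pairing used in the blocked fit. The numbers were read as animals on the ground of the labels, and the blocked fit is given beside the unblocked one.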

Additional observations from a re-analysis of the deposited data

Results flagged for a closer look

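In 12 of the 152 groups of 6 libraries tested for the 38 genes singled out, 1 library stood far from the rest. The gap to its neighbour was set against the range of normalized counts, not of log2 values. Chance flags about 1 in 20 groups where values are normally distributed, which was not checked here. On the log2 scale other libraries could stand out. Groups of 1 library share that library. C_7005 was the high library in 7 of the 12 flagged groups. It was at 581 for gene 29 in the right ventricle, at 347 for gene 46 and 871 for gene 80 in the left, at 1118 and 292 for gene 48 in the left and right, and at 5892 and 4211 for gene 89 in the left and right. The next highest CTL libraries of gene 89 were at 4025 and 3197. C_7121 was the high CTL library of the right ventricle for gene 6, at 45.4, and gene 55, at 173. Among DAAO libraries, D_7142 was high for gene 13 in the left ventricle at 714, D_7137 was high for gene 29 in the right at 10682, and D_7143 was low for gene 16 in the right at 5693, where the next lowest was at 9660. Gene 76 was called for a DAAO effect that differed between the ventricles, by 0.82 on the log2 scale in the fit over both. That call was lost in 11 of 19 alternatives.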

How the results depend on the processing

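The number of genes meeting the rule was 116. It was 55 with a difference of at least 1.5, 323 without the condition on overlap and 343 without CTL animals C_7000 and C_7005, and 104 (without D_7138) to 156 (without C_7005) when 1 animal was left out. After scaling libraries to equal totals it was 165, 114 of them among the 116; that scaling moved the median of all tested genes by over 0.1, to 0.215 in the left and 0.268 in the right ventricle, and all 116 genes stayed at least 2-fold higher in both. Other pseudocounts, scaling or leaving out the 2 CTL animals gave 304 differences for the 38 genes singled out. Of these, 302 moved by less than 1 SD, 2 moved more (genes 76 and 92 with equal totals) and 0 reversed. That SD differs between genes, so a shift under 1 SD was not always small. With a pseudocount of 5, gene 8 went from 4.12 to 3.22 in the right ventricle. Without the 2 CTL animals, gene 1 went from 4.63 to 5.37 there. Both shifts were under 1 SD, while that of gene 92, from 1.12 to 1.32 in the left ventricle, was over it. The count of genes called for the left minus right difference was 391 of all genes tested. It was 1072 with the replicate block (paired by animal), 236 without C_7000 and C_7005, and 85 (without D_7146) to 616 (without D_7137) when 1 animal was left out; 1 member at most was called in each of these leave-one-out fits. The counts for each ventricle stayed within 1.5 times of 5235 and 3574 in the alternatives run, but equal totals moved their split from 2430 higher and 2805 lower to 4337 and 1628 (left) and from 1684 and 1890 to 3815 and 932 (right). Depth limits genes such as gene 8, which rests on few reads in CTL.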
